A study of Mus musculus with 2 samples.

Results

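The let-7 microRNAs (miRNAs) and their relative miR-98 were profiled in cartilage from the knees of 8-week-old male mice on 2 one-colour Agilent mouse miRNA arrays. The family was taken as every let-7 5p arm with probes on the array, plus miR-98-5p, leaving aside the sequences let-7j and let-7k that the array names without an arm. This gave 9 mature miRNAs, mmu-let-7a-5p, mmu-let-7b-5p, mmu-let-7c-5p, mmu-let-7d-5p, mmu-let-7e-5p, mmu-let-7f-5p, mmu-let-7g-5p, mmu-let-7i-5p and mmu-miR-98-5p, written below without the species prefix, among the 1247 mouse miRNAs on the array. One array held RNA from Col2a1Tsc1KO cartilage, whose genotype label names Col2a1 and a knockout of Tsc1, and the other held RNA from control cartilage, labelled wildtype. The design text describes a Tsc1 deletion specific to Col2a1, the collagen gene active in chondrocytes, and does not say which cells of the cartilage lost Tsc1. Both samples were articular cartilage peeled off the knee, and the labels do not say how many mice went into each. With 1 array per group no difference below has a replicate check and no test was possible, so the values describe these 2 arrays. Both lay on 1 slide, and the genotype and the array's place on the slide cannot be told apart.

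Mature let-7 miRNAs guide Argonaute proteins to messenger RNAs through the seed, bases 2 to 8 counted from the 5′ end. They are known for restraining proliferation and favouring differentiation, with Hmga2 and Ras genes among their targets. Tsc1 is part of the complex that holds back mTORC1, the kinase complex that drives growth when amino acids and growth factors are present, and let-7 is itself known to repress components of the amino acid branch of that pathway. In growth plate chondrocytes of the mouse, let-7 and miR-140 are both needed for normal cartilage growth. The array held no probe for the Tsc1 mRNA, for the let-7 inhibitor Lin28 or for any let-7 target, so none of these was measured and the genotype label could not be checked.

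All 9 miRNAs matched RefSeq by name (assembly GRCm38.p6). Their mature sequences are given 5′ to 3′ with the seed in capitals, since the shared seed defines the family and the bases outside it are what the array's probes can tell apart.
let-7a-5p: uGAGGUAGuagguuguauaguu
let-7b-5p: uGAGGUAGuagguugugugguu
let-7c-5p: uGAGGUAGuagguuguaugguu
let-7d-5p: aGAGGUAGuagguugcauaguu
let-7e-5p: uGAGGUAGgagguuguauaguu
let-7f-5p: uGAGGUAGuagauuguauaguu
let-7g-5p: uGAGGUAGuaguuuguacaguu
let-7i-5p: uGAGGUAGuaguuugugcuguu
miR-98-5p: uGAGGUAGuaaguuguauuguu

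Each sequence is 22 bases long, 14 positions are the same in all 9, and let-7a carries the commonest base at every position. Counted from 1 at the 5′ end, with the base of let-7a first, let-7b differs from let-7a by A17G and A19G, let-7c by A19G, let-7d by U1A and U16C, and let-7e by U9G. The others differ by G12A in let-7f, by G12U and U18C in let-7g, by G12U, A17G, U18C and A19U in let-7i, and by G11A and A19U in miR-98. Of 1679 mature mouse miRNAs in the RefSeq table, 11 carry this seed, and 9 of them are the miRNAs above. The remaining ones, let-7k and miR-1961, had no probe well above background on the Col2a1Tsc1KO array or the control array.

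Each of the 9 miRNAs had 2 probes that differ in length by 1 base, and each probe had 15 to 20 usable spots on an array. The probes pair with the mature miRNA from its base 22 back towards the seed and stop at bases 1 to 5. The longer probe of 5 of them is given below 5′ to 3′, with bases unlike the let-7a probe, or unlike the complement of let-7a beyond its end, in capitals.
let-7a-5p probe: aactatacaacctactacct
let-7b-5p probe: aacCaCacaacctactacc
let-7c-5p probe: aacCatacaacctactacc
let-7e-5p probe: aactatacaacctCctacc
miR-98-5p probe: aacAatacaacTtactacctca

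The 6 miRNAs let-7a to let-7f had probes that pair with another of the 9 miRNAs with 1 mismatch. The probes of let-7g, let-7i and miR-98 had at least 2 mismatches to every other one. How much of each probe's signal came from a sister miRNA was not tested.

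All 9 miRNAs were brighter on the Col2a1Tsc1KO array than on the control array. The log2 difference, Col2a1Tsc1KO minus control, was measured after each array was scaled to the 75th percentile of the 476 probes that stood well above background on both. The median of the 9 differences was 0.82, or 1.77-fold, against a median of -0.22, or 0.861-fold, over all 257 miRNAs that were well above background on both arrays. let-7e, let-7c, let-7b and let-7a were at least 2-fold higher, which is 4 of 9, and across the 257 miRNAs the same was true of 40, or 15.6%. A difference above 0 was seen in 9 of 9 members and in 40.9% of the 257, while 45 of the 257, or 17.5%, and none of the 9 were at least 2-fold lower. All 9 passed the filter on dim probes on both arrays, so none entered through the array where it was bright.

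**Figure D1:**
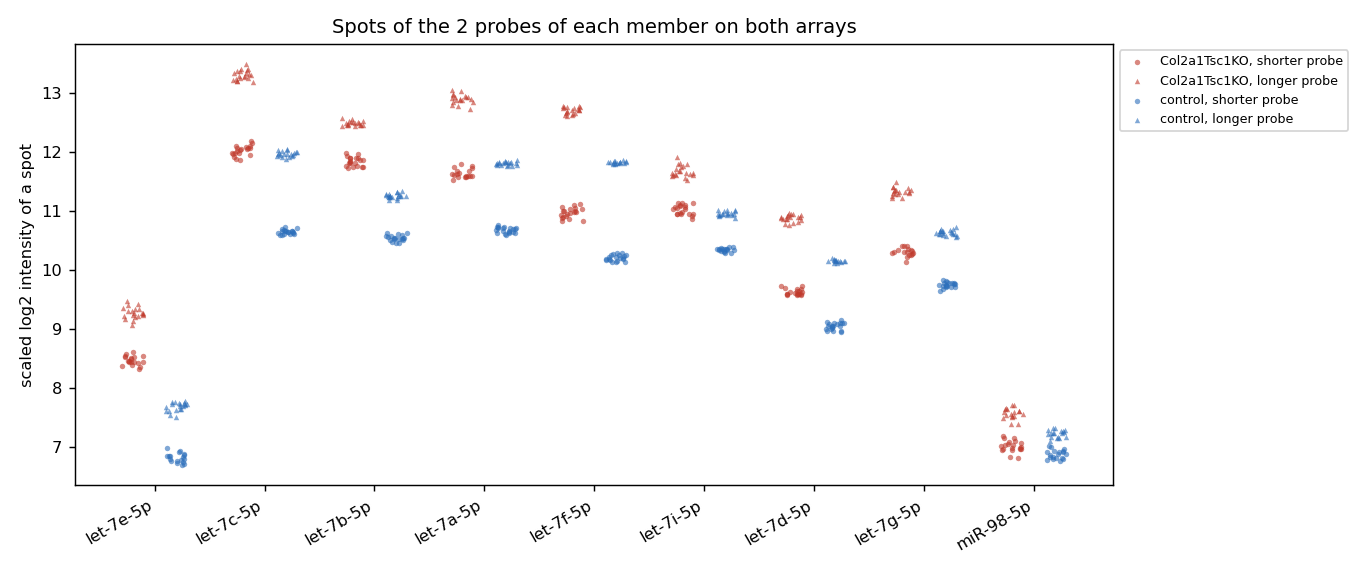
The vertical axis is the scaled log2 intensity of single spots, with Col2a1Tsc1KO in red left of control in blue for each of the 9 miRNAs, circles for the shorter probe and triangles for the longer one. Only for the shorter probe of miR-98-5p do the spots of the 2 arrays overlap, and heights cannot be compared between miRNAs because each probe binds with its own strength.

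The spots of a probe repeat the measurement on 1 RNA sample, so their spread is technical. For 17 of the 18 probes of the family, every Col2a1Tsc1KO spot was brighter than every control spot. Among all 476 probes well above background on both arrays this held for 139, or 29.2%. The reverse, every control spot brighter than every Col2a1Tsc1KO spot, held for 191, or 40.1%. In the remaining 30.7% the spots overlapped, so full separation of spots was common on these arrays. The exception in the family was the shorter probe of miR-98-5p. Intensities are given below on the scale the 2 arrays share after scaling, the errors are standard errors over spots, and they hold none of the variation between mice.

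The member that differed most was let-7e-5p, which is distinguished by a base just outside the seed (U9G) and stood at rank 7 of the 257 miRNAs. Its longer probe ran over spots from 535 through a median of 618 to 711 on the Col2a1Tsc1KO array, against 181, 208 and 219 on the control array. Its shorter probe gave 318, 351 and 390 on the Col2a1Tsc1KO array, against 103, 112 and 126 on the control array. The 2 probes gave nearly the same difference, 1.65 for the shorter and 1.59 for the longer, and together 1.62 ± 0.02, or 3.08-fold.

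For let-7c-5p, which differs from let-7a by A19G alone, the mean scaled intensity was 6510 on the Col2a1Tsc1KO array and 2540 on the control array. The longer probe's spots lay between 9368 and 11536 with a median of 10105 on the Col2a1Tsc1KO array, against 3782 to 4231 with a median of 4012 on the control array. The difference was 1.36 ± 0.01, or 2.56-fold, with 1.38 for the shorter and 1.34 for the longer probe, and put let-7c-5p at rank 24. The groups of spots were far apart, with the dimmest Col2a1Tsc1KO spot of the longer probe brighter than the brightest control spot.

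let-7b-5p carries the let-7c change and A17G as well. Its mean scaled intensity was 4597 on the Col2a1Tsc1KO array and 1915 on the control array, a difference of 1.26 ± 0.01 or 2.40-fold, at rank 29. Its longer probe ran from 5577 through a median of 5751 to 6080 on the Col2a1Tsc1KO array, against 2329, 2450 and 2583 on the control array. The shorter probe gave 1.30 and the longer 1.23.

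let-7a-5p, the sequence the others were set against above, sat at the 2-fold line. Its longer probe ran from 6835 through a median of 7685 to 8544 on the Col2a1Tsc1KO array, against 3470, 3586 and 3712 on the control array. Its mean difference was 1.03 ± 0.01, or 2.04-fold. The longer probe alone gave 2.14-fold and the shorter 1.95-fold, so which side of the 2-fold line let-7a falls on depended on the probe.

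Just under the line came let-7f-5p, with mean scaled intensities of 3668 on the Col2a1Tsc1KO array and 2073 on the control array and a difference of 0.82 ± 0.01, or 1.77-fold. Its longer probe ran from 6271 through 6731 to 7069 on the Col2a1Tsc1KO array, against 3574, 3632 and 3712 on the control array, with no overlap.

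let-7i-5p, let-7d-5p and let-7g-5p formed a tight group, with 1.63-, 1.57- and 1.54-fold higher signals on the Col2a1Tsc1KO array. let-7i-5p averaged 2613 on the Col2a1Tsc1KO array and 1607 on the control array, a log2 difference of 0.70 ± 0.02. let-7d-5p averaged 1221 on the Col2a1Tsc1KO array and 776 on the control array, a log2 difference of 0.65 ± 0.01. let-7g-5p averaged 1806 on the Col2a1Tsc1KO array and 1170 on the control array, a log2 difference of 0.63 ± 0.01. The gaps among these 3 differences were smaller than the gap of 0.14 between the 2 probes of let-7d or of let-7g, so the 3 cannot be ordered.

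miR-98-5p differed least, at 0.24 ± 0.02 or 1.18-fold, with mean scaled intensities of 156 on the Col2a1Tsc1KO array and 132 on the control array. Its shorter probe ran from 113 through 128 to 146 on the Col2a1Tsc1KO array, against 109, 118 and 129 on the control array, and the spots overlapped. Its longer probe ran from 167 through 190 to 209 on the Col2a1Tsc1KO array, against 137, 150 and 160 on the control array, and the spots did not overlap. The 2 probes gave 0.14 and 0.34, the largest disagreement among the 9, and both lay below the difference of every probe of the other 8 miRNAs.

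**Figure D2:**
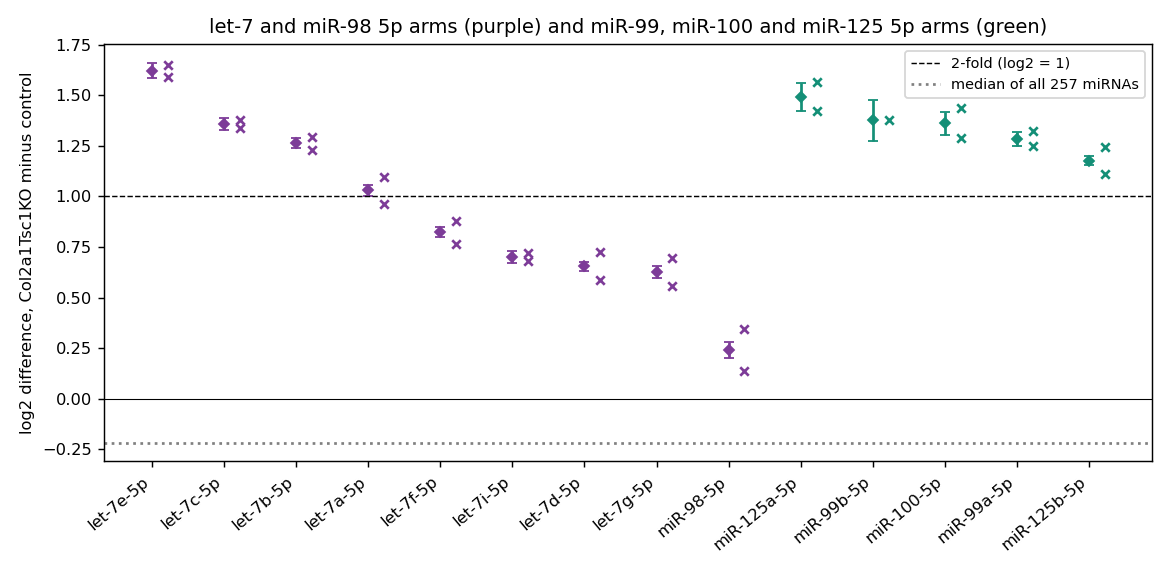
The vertical axis is the log2 difference, Col2a1Tsc1KO minus control, with diamonds for each miRNA's mean, bars for 2 standard errors over spots and crosses for single probes. The 9 family members fall from let-7e-5p at 1.62 to miR-98-5p at 0.24. The 5 miR-99, miR-100 and miR-125 5p arms encoded near let-7 genes lie between 1.18 and 1.49.

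The 2 probes of a miRNA disagreed by 0.04 in let-7i to 0.21 in miR-98. The single probes of miR-98 had standard errors over spots of 0.028 and 0.026, far below its gap. Those of let-7i had 0.020 and 0.023, so its gap was not clearly beyond the spread over spots. In let-7a, let-7d, let-7f, let-7g, let-7i and miR-98 the longer probe gave the larger difference, and in let-7b, let-7c and let-7e the shorter one did. The span of 1.38 across the family, from miR-98 to let-7e, was larger than this probe disagreement. Neighbours such as let-7i and let-7d, whose probe values overlapped, were not separated. The 2 probes of a miRNA differ in length by 1 base and read the same RNA, so their gap is not a full measure of error.

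Pairs of members close in sequence were set beside pairs further apart. Of the 36 pairs among the 9 miRNAs, the 4 pairs 1 base apart differed from each other by 0.09 to 0.59 in their log2 differences, with a median of 0.27. The 10 pairs 2 bases apart had a median gap of 0.39, the 11 pairs 3 bases apart 0.70 and the 9 pairs 4 bases apart 0.41. The single pair 5 bases apart differed by 0.92 and the single pair 6 bases apart by 0.05. These pairs share members and are a description only. let-7e, 1 base from let-7a, exceeded let-7a by 0.59.

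The base composition of the mature sequence varied little. let-7f and miR-98 have 7 G and C bases and differences of 0.82 and 0.24, let-7a and let-7g have 8, let-7c, let-7d, let-7e and let-7i have 9 with differences between 0.65 and 1.62, and let-7b has 10 with 1.26. Across the 9 members, the share of G and C in the longest probe and the difference had a Pearson correlation of 0.56 and a Spearman correlation of 0.46. Across all 257 miRNAs the same correlations were -0.19 and -0.19. All points share the 2 arrays, and neither pair of values is a test.

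**Figure D3:**
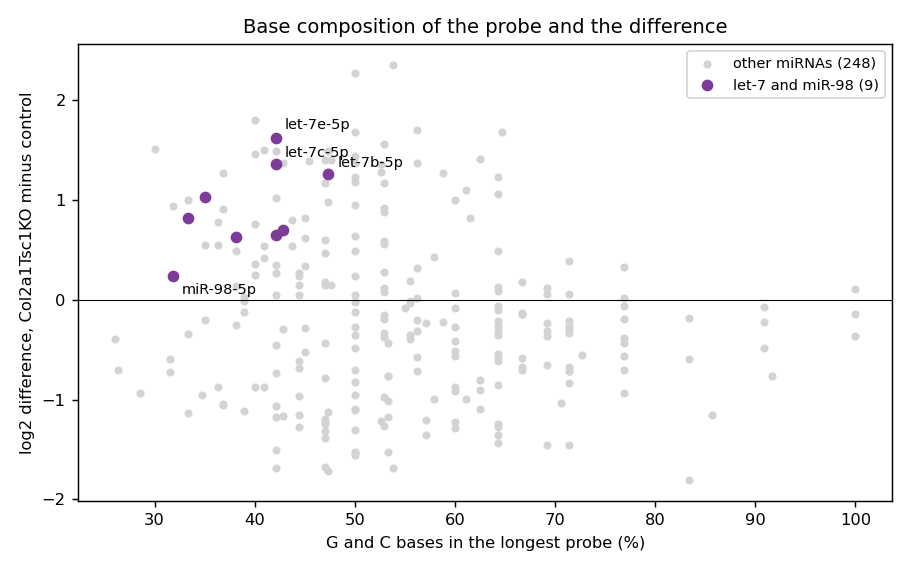
The horizontal axis is the percentage of G and C bases in a miRNA's longest probe and the vertical axis the log2 difference, Col2a1Tsc1KO minus control, with 9 family members in purple and 248 other miRNAs in grey. The purple points lie above 0 on the left side of the plot, where grey points lie both above and below 0.

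Of the 9, 7 were among the 65 brightest of the 257 miRNAs, the exceptions being let-7e and miR-98. The other 58 of these bright miRNAs had a median difference of 0.21, with 31 above 0 and 14 at least 2-fold higher. Over all 257 miRNAs, brightness and difference had a Pearson correlation of 0.23 and a Spearman correlation of 0.21. The part of brightness in the family's differences was not tested.

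In the mouse genome the 9 miRNAs come from 12 genes (RefSeq, GRCm38.p6). Mirlet7e, at chr17:17830352-17830444 on the plus strand, lies in the span of Spaca6 between Mir99b and Mir125a, whose mature 5p sequences lie 137 and 373 bases away. Mirlet7c-1, at chr16:77599657-77599750 on the plus strand, lies 696 bases from miR-99a and 46.5 kb from miR-125b of Mir125b-2. Mirlet7a-2, at chr9:41536716-41536811 on the plus strand, lies in the span of the long non-coding RNA gene Mir100hg, 5.26 kb from miR-100 and 45.1 kb from miR-125b of Mir125b-1.

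The other genes have no miR-99, miR-100 or miR-125 gene within 60 kb. Mirlet7a-1 at chr13:48538179-48538272, Mirlet7f-1 at chr13:48537829-48537917 and Mirlet7d at chr13:48536012-48536114 stand together on the minus strand. Mirlet7c-2 at chr15:85706603-85706697 and Mirlet7b at chr15:85707319-85707403 stand together on the plus strand in the long non-coding RNA gene Lncppara. Mirlet7f-2 at chrX:151912346-151912428 and Mir98 at chrX:151913214-151913321 lie in the span of Huwe1 on the plus strand. Mirlet7g lies at chr9:106178840-106178927 on the plus strand in the span of Wdr82, and Mirlet7i at chr10:122985640-122985724 on the minus strand in no other gene's span. Because let-7a, let-7c and let-7f each have 2 genes with the same mature sequence, the array cannot say which gene a signal came from.

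The miRNAs encoded beside let-7 genes were higher on the Col2a1Tsc1KO array too. Their families are known in their own right, miR-99 and miR-100 for repressing Mtor, the kinase of mTORC1, and miR-125 as the vertebrate relative of worm lin-4. miR-125a-5p averaged 162 on the Col2a1Tsc1KO array and 57.5 on the control array, a difference of 1.49 ± 0.04. miR-99b-5p, on 1 usable probe, averaged 99.1 on the Col2a1Tsc1KO array and 38.2 on the control array, a difference of 1.38 ± 0.05. These are the direct neighbours of let-7e, the member with the largest difference. Other miRNA genes within 60 kb of a let-7 gene were Mir135a-1, beside Mirlet7g, and Mir3113, beside Mirlet7f-2 and Mir98. miR-135a-1-3p was not higher, averaging 29.6 on the Col2a1Tsc1KO array and 30.9 on the control array, a difference of -0.07 ± 0.09.

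miR-100-5p averaged 295 on the Col2a1Tsc1KO array and 115 on the control array, a difference of 1.36 ± 0.03. miR-99a-5p averaged 803 on the Col2a1Tsc1KO array and 330 on the control array, a difference of 1.28 ± 0.02. miR-125b-5p averaged 2611 on the Col2a1Tsc1KO array and 1155 on the control array, a difference of 1.18 ± 0.01. All 5 passed the 2-fold line, and their median was 1.36 or 2.57-fold, beside the 15.6% of all miRNAs given above. Under the alternatives all 5 kept a difference above 0, the lowest being 0.62 for miR-125b-5p in the deposited log2 values. Not all 5 stayed past the 2-fold line. With normexp background correction and quantile normalization, miR-99a-5p at 1.07 and miR-100-5p at 1.02 passed it, beside 5.84% of the 257 miRNAs. In that setting miR-125b-5p at 0.93, miR-125a-5p at 0.91 and miR-99b-5p at 0.70 did not.

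Sorted by these neighbours, a grouping made after the values were seen, let-7a, let-7c and let-7e, which have a gene beside miR-99, miR-100 or miR-125, had differences of 1.03 to 1.62 with a median of 1.36. The 6 members without such a gene had differences of 0.24 to 1.26 with a median of 0.68, and let-7b was the 1 of these 6 at least 2-fold higher. let-7f, through 1 of its 2 genes, and miR-98 share the Huwe1 span on the X chromosome, and their differences were 0.82 and 0.24.

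Precursors of let-7 are also sorted by a GGAG motif in the stretch between the 2 arms, to which LIN28 is known to bind when it blocks their maturation. In the letters between the arms on the transcript strand, GGAG occurred in 8 of the 11 let-7 and miR-98 hairpins for which both arms were listed, and in 52 of all 644 such mouse hairpins, or 8.07%. It was missing from Mirlet7b, Mirlet7c-2 and Mir98. The hairpins of the members with the largest and smallest difference, and of let-7b, are given with GGAG between the arms in capitals.
Mirlet7e: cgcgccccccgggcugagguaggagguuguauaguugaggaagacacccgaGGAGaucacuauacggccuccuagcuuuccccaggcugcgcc
Mirlet7b: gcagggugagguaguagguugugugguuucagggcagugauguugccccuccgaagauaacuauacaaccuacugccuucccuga
Mir98: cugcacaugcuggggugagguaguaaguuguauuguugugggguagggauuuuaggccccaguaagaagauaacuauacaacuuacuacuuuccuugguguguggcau

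let-7b and miR-98, the mature miRNAs with no GGAG in any listed hairpin, had differences of 1.26 and 0.24, near the top and at the bottom of the family. The members with and without the motif thus overlapped in their differences, and nothing about LIN28 in this cartilage follows from the letters.

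The opposite strand of the hairpins did not pass the filter on dim probes. Of the 11 let-7 and miR-98 3p arms with probes, 0 were well above background on either array. let-7j and let-7k were not above background on either array. miR-202-3p, which shares 6 of the 7 seed bases, had a scaled intensity of 105.5 on the Col2a1Tsc1KO array and 142 on the control array, a difference of -0.43 ± 0.04. That difference followed the scaling, since it was -0.02 without scaling and 0.01 when all probes set the 75th percentile.

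By the measure of likeness available with 2 arrays, the distance between a miRNA's difference and the family median of 0.82, the nearest other miRNAs were miR-107-3p at 0.82, miR-320-3p at 0.82 and miR-26a-5p at 0.80. miR-107-3p averaged 406 on the Col2a1Tsc1KO array and 230 on the control array. miR-26a-5p averaged 3181 on the Col2a1Tsc1KO array and 1824 on the control array. With 1 array per group this likeness is a single number per miRNA and not a pattern across samples.

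Markers of several cell types moved with the genotype label on these arrays. Of the 4 chondrocyte markers all were well above background and 3 were at least 2-fold higher, beside the 15.6% of all 257 miRNAs: miR-140-5p averaged 2713 on the Col2a1Tsc1KO array and 1046 on the control array, a difference of 1.38, miR-140-3p differed by 1.01 and miR-455-3p by 1.71, while miR-455-5p differed by -0.03 ± 0.14. Their summed scaled intensity was 5268 on the Col2a1Tsc1KO array and 2322 on the control array. The count of 3 depended on the setting. With normexp background correction and quantile normalization, miR-140-5p differed by 0.93, miR-455-3p by 0.82 and miR-140-3p by 0.60. All 3 were then under the 2-fold line, which 5.84% of the 257 miRNAs reached in that setting. The 4 skeletal muscle markers had differences from -0.996 for miR-133b-3p to 0.05 for miR-206-3p, with a median of -0.97 and a sum of 737 on the Col2a1Tsc1KO array and 1410.4 on the control array. The 4 leukocyte markers ran from -1.17 for miR-223-3p to 0.64 for miR-150-5p, with a median of -0.77. miR-223-3p averaged 3632 on the Col2a1Tsc1KO array and 8163 on the control array. The sum of the 4 was 4454 on the Col2a1Tsc1KO array and 9633 on the control array. In these lists miR-455-3p, miR-455-5p, miR-206-3p and miR-150-5p each rested on 1 usable probe. The last 2 were dim, miR-206-3p at 26.9 on the Col2a1Tsc1KO array and 26.0 on the control array. miR-150-5p stood at 53.3 on the Col2a1Tsc1KO array and 34.3 on the control array.

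Of the erythroid markers 2 were measured, miR-451a at 0.55 and miR-144-3p at 1.51, and the third, miR-486-5p, was not analysed here. The sum of the 2 was 3472 on the Col2a1Tsc1KO array and 2340.4 on the control array. The endothelial markers miR-126-3p and miR-126-5p differed by 0.35 and 0.14, with a sum of 1977 on the Col2a1Tsc1KO array and 1555 on the control array. None of the 2 neural, 5 epithelial and 1 liver markers was well above background on either array. Some markers changed sign with the setting. miR-455-5p did so in 9 of 12 alternatives that gave it a value, and miR-206-3p in 2 of 12. miR-126-3p did so in 2 of 13, and miR-451a and miR-150-5p in 1 of 13 each. For miR-150-5p that setting was the software's total signal, at -3.72 against 0.64 in the main setting, and the cause was not tested. The part of these markers' shifts in the family's differences was not tested, and in such bulk RNA fewer cells of a type and less RNA per cell cannot be told apart.

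Signal over background was similar on the arrays. Of the miRNA spots, 21.1% on the Col2a1Tsc1KO array and 19.6% on the control array were well above background, and 296 miRNAs on the Col2a1Tsc1KO array and 281 on the control array had a probe that was. The median intensity of the negative-control spots was 4.93 on the Col2a1Tsc1KO array and 5.02 on the control array, and no miRNA spot was saturated. Spots of miRNAs well above background had a median of 107 on the Col2a1Tsc1KO array and 98.4 on the control array.

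The scaling set how large the family's difference was. Before scaling, the 75th percentile of the Col2a1Tsc1KO array lay 0.41 above that of the control array on the log2 scale. The array's spike-in control probes differed by a mean of 0.05, with single spike-ins from -0.05 to 0.18. Without scaling, the family median was 1.23 and 8 of the 9 members, the exception being miR-98, were at least 2-fold higher, beside 23.0% of all 257 miRNAs. With normexp background correction and quantile normalization, the family median was 0.41 and let-7c and let-7e alone of the 9 were at least 2-fold higher, beside 5.84% of the 257. In the submitters' deposited log2 values, the same 2 members passed, beside 16.8% of 304 miRNAs, and the family median was 0.49. All 9 members were above 0 under each of 13 alternatives, and let-7e was first in 13 of them. Alternatives that change only an array's scaling constant shift all members alike, so they could not change the order of the members.

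**Figure D4:**
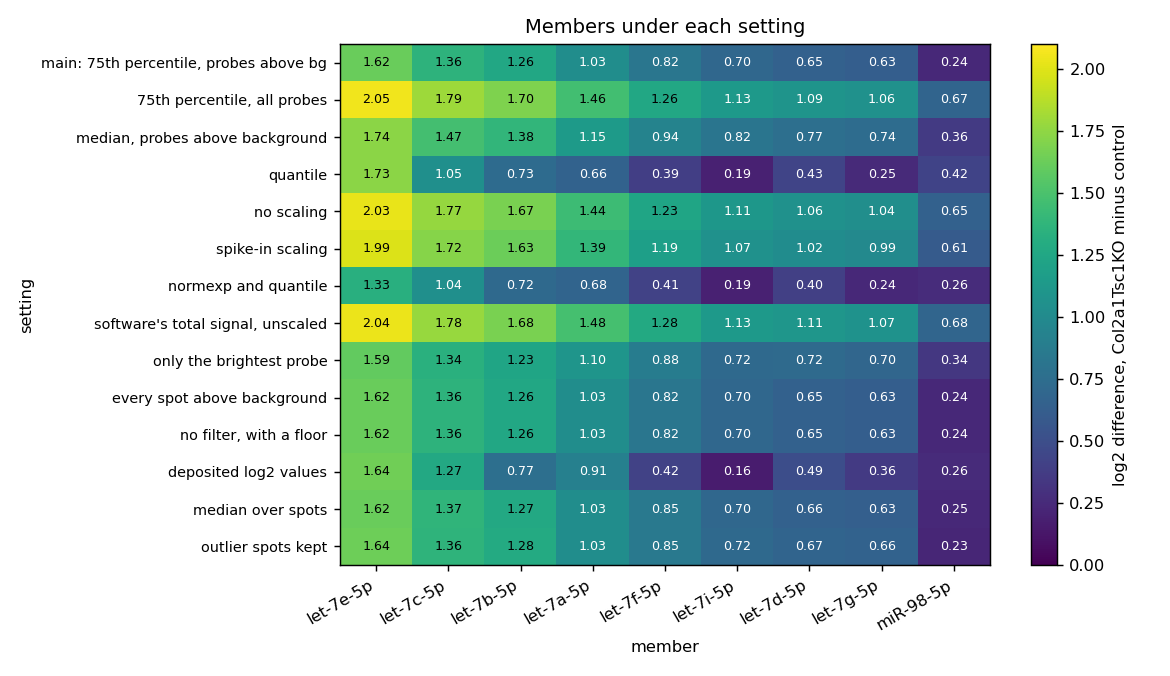
Each cell is the log2 difference, Col2a1Tsc1KO minus control, of 1 of the 9 miRNAs (columns) under the main setting (top row) and 13 alternatives (rows below), with lighter cells larger. let-7e-5p is the lightest in every row. miR-98-5p is the darkest in the main setting and 10 of the 13 alternatives, the others having let-7i-5p lowest. Where an alternative changes only an array's scaling constant, the order of the members cannot differ from the main row.

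In the deposited log2 values themselves, let-7e-5p stood at 8.62 for Col2a1Tsc1KO and 6.98 for control, a difference of 1.64. let-7c-5p stood at 12.62 for Col2a1Tsc1KO and 11.35 for control, a difference of 1.27. let-7i-5p stood at 10.73 for Col2a1Tsc1KO and 10.57 for control, a difference of 0.16 and the smallest of the 9 in that table. Over the 257 miRNAs, the differences of the deposited table and those of the main setting had a Pearson correlation of 0.96.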

How the data were processed

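The scanner files came from Agilent Feature Extraction 10.7, per the submitters' processing notes, and the deposited intensity of each spot had its background subtracted by that software and was not scaled between arrays, per the file headers. A second deposited table holds log2 values by miRNA, and no source used here says how it was scaled or centred. Its column medians were -3.32 for Col2a1Tsc1KO and -3.26 for control, which are also its floors, and its columns correlated with the log2 total signals at 0.862 for Col2a1Tsc1KO and 0.871 for control, so it is on a log2 scale and runs the same way.

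From the scanner files (Python 3.11.15, numpy 2.4.6, pandas 2.3.3), outlier spots were dropped, log2 intensities were averaged per probe, and a probe counted as well above background when over 50% of its spots were so marked. The 75th percentile of the 476 probes that met this on both arrays set the scale of an array, and a miRNA's difference was the mean over such probes. A log2 difference of 1, which is 2-fold, was the threshold for counts. limma 3.58.1 in R 4.3.3 ran the normexp alternative (offset 50). The steps were tested on simulated data with known changes. The number of arrays limits the precision.

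All 9 members, the 3p arms, miR-202-3p and the markers were named by rule. So were the 5 neighbouring miR-99, miR-100 and miR-125 5p arms and the 3 miRNAs nearest to the family median. The members and lists were chosen with earlier results of these data known. In all, 13 alternatives were run, and the closing section gives their effect.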

Additional observations from a re-analysis of the deposited data

Results flagged for a closer look

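The software's total signal of let-7a-1-3p, a 3p arm outside the main measurement, was 3056.68 on the Col2a1Tsc1KO array, against 1.73 on the control array, although all its probes were near background on both arrays. That total equals the total of a bright corner control spot, 3053.93, plus the 2.75 of the miRNA's own brightest probe. On the control array the total of let-7d-3p, 1910.05, against 1.64 on the Col2a1Tsc1KO array, equals the let-7c-5p total of 1907.05 plus the 3.001 of its own brightest probe. In the deposited log2 values these 2 arms stood at -0.93 for Col2a1Tsc1KO and -3.26 for control (let-7a-1-3p), and at -3.32 for Col2a1Tsc1KO and 2.07 for control (let-7d-3p), differences of 2.33 and -5.39. The totals of the 9 family members held no such sum: 18 of 18 equalled the sum of the 2 probe totals within 0.1%.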

How the results depend on the processing

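No paired analysis was possible because each group held 1 array, and leaving out a replicate was not possible for the same reason. Against the main values, a family median of 0.82, 4 members at least 2-fold higher and a median of 1.36 for the 5 neighbouring miRNAs, these were 1.26, 8 and 1.79 when all probes set the 75th percentile, 1.23, 8 and 1.77 without scaling, 1.19, 7 and 1.73 with the spike-ins, and 1.28, 8 and 1.75 with the software's totals. They were 0.43, 2 and 1.51 with quantile normalization, 0.41, 2 and 0.93 with normexp and quantile normalization, and 0.49, 2 and 1.49 with the deposited log2 values. The medians were 0.94 and 1.48 with median scaling and 0.88 and 1.29 with only the brightest probe. The neighbours' median was 1.28 with a floor in place of the filter, and the family median was 0.85 with outlier spots kept. The median of all miRNAs changed sign, to 0.22 when all probes set the 75th percentile, 0.19 without scaling, 0.15 with the spike-ins and 0.23 with the totals, against -0.22. The family median minus that median was 1.04 and ranged from 0.44 to 1.09. The split of miRNAs at least 2-fold higher and lower, 40 and 45 in the main setting, was 59 and 13 when all probes set the percentile and likewise without scaling, 55 and 14 with the spike-ins, 15 and 9 with normexp and 73 and 27 with the totals. The cause of these shifts was not tested. let-7e, let-7c, let-7b and let-7a were the top 4 under all 13 alternatives. With the all-probe percentile, median scaling, no scaling and the spike-ins only an array's scaling constant changed, so the order of members could not. Requiring every spot to be well above background, or a floor in place of the filter, left each member's value as in the main setting. Low signal over background limits the 3p arms, none of which was well above it on either array.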
